A study of Mus musculus with 3 samples.

Results

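Cadherins are calcium-dependent adhesion proteins that join neighbouring cells, and catenins are the cytoplasmic proteins that tie them to the cytoskeleton. The genes described here are 6 cadherin genes (Cdh1, Cdh2, Cdh5, Cdh11, Cdh13 and Cdh15) and 3 catenin genes (Ctnna1, Ctnnb1 and Ctnnd1), chosen by gene symbol among the 18193 genes of the array's annotation. All 22 probe sets whose single symbol was one of these 9 genes were used. Their signals were compared over 3 sorted populations of mouse endosteal cells, the cells lining the inner face of bone, with 1 Affymetrix array per population.

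The cells came from collagenase-treated fragments of thigh and shin bone of C57BL/6 mice and were sorted as lacking CD45, CD31 and Ter119, surface markers of blood cells, endothelium and the red cell lineage. Genes of the red cell lineage were nevertheless bright on the double-negative array, as described below with the marker lists. The populations were ALCAM(+) Sca-1(-) cells, called ALCAM+ here, ALCAM(-) Sca-1(+) cells, called Sca-1+, and ALCAM(-) Sca-1(-) cells, called double-negative (they lack both). ALCAM is an adhesion molecule of the immunoglobulin superfamily and Sca-1 a surface protein of many progenitor cells. The age, the sex and the number of mice behind each sort are not given in the sources used here. With 1 array per population there are no replicates and no p-values, so no difference below has a replicate check, and "higher" and "lower" state what these 3 arrays show.

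In the classical cadherins, the extracellular domain of a cell binds cadherins on its neighbour, and the cytoplasmic tail binds beta-catenin (Ctnnb1) and p120-catenin (Ctnnd1). Beta-catenin in turn binds alpha-catenin (Ctnna1), which contacts actin filaments. Free beta-catenin also enters the nucleus, where it acts with TCF and LEF factors in Wnt signalling. N-cadherin (Cdh2) and cadherin-11 (Cdh11) are the cadherins best known from bone-forming cells, and N-cadherin has been studied as a contact between niche cells and blood stem cells.

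Values are the deposited MAS5 signals on a linear scale. Signals up to 75.4, the pooled median of the probe sets other than controls, were treated as not separable from background, and this value is called the floor. A fold against a signal at or below the floor is a lower bound, written "at least". A gene is represented by its brightest probe set and is called measured if that probe set passed the floor on at least 1 array. Signals of different probe sets are not ranked against each other, since each has its own brightness. Summed signals of gene lists add such probe sets, so the brightest weigh most in a sum. In sorted bulk samples, fewer cells of a type and less RNA per cell cannot be told apart.

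Of the 9 genes, 7 were measured: 4 cadherins (Cdh2, Cdh11, Cdh13 and Cdh15) and the 3 catenins. Cdh1 and Cdh5 stayed at or below the floor in all their probe sets on the 3 arrays. Of the 22 probe sets, 17 passed the floor on at least 1 array and 12 on all 3. The cadherins split by population. Cdh2, Cdh11 and Cdh15 had their highest signal in ALCAM+ cells and Cdh13 in Sca-1+ cells, while no catenin was 4-fold apart between any 2 populations in its brightest probe set.

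**Figure D1:**
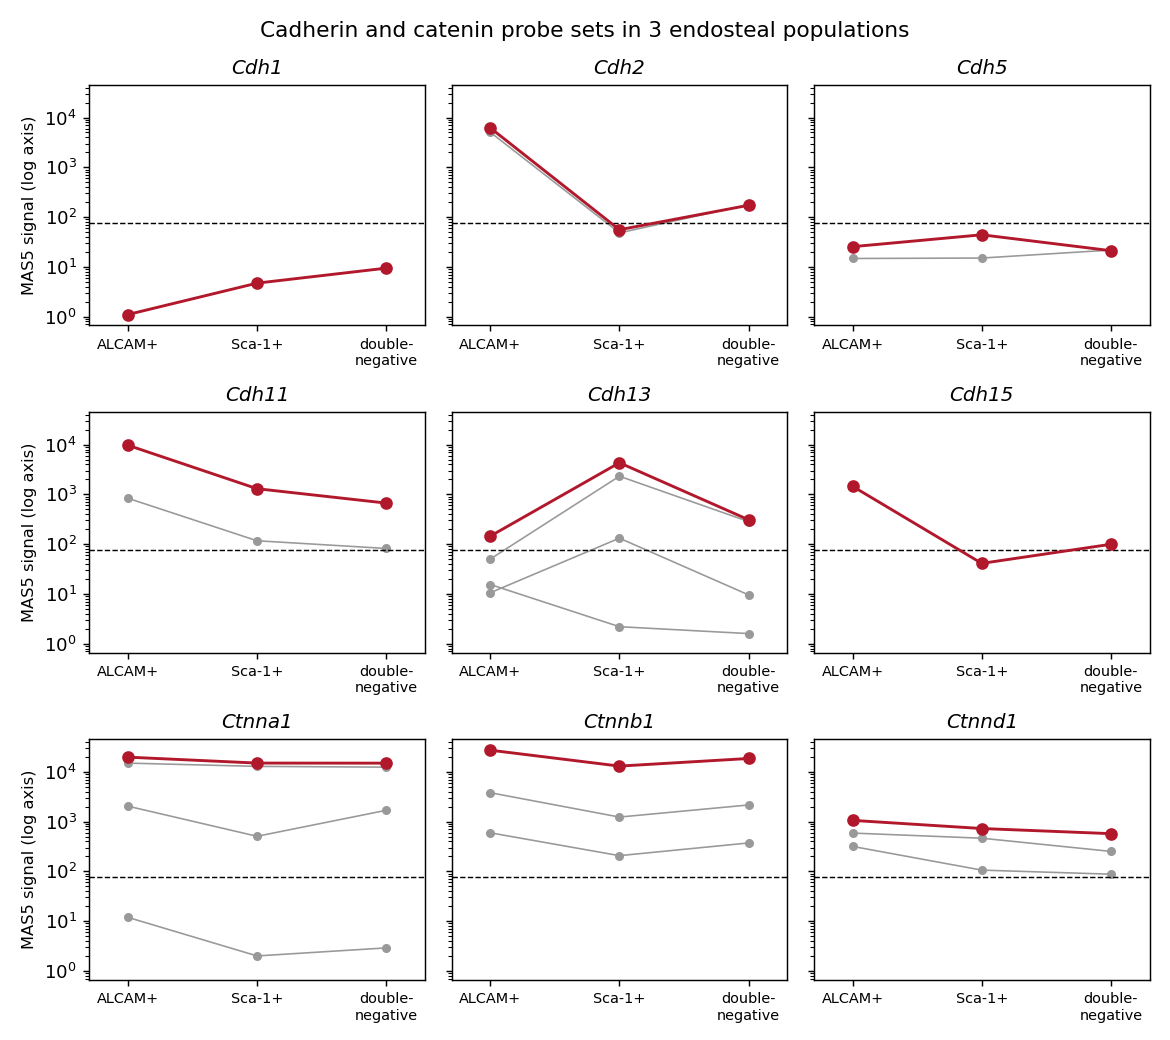
MAS5 signal (log axis) of each of the 22 probe sets of the 9 genes in the ALCAM+, Sca-1+ and double-negative populations, 1 array each. The brightest probe set of each gene is in red and the others are in grey, lines join the 3 values of a probe set, and the dashed line is the floor of 75.4. Cdh2, Cdh11 and Cdh15 peak in ALCAM+ cells, Cdh13 peaks in Sca-1+ cells in its 3 probe sets that pass the floor, and the catenin probe sets vary less, with Ctnnb1 lowest in Sca-1+ cells.

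Promoter sequences from RefSeq, 250 bases before to 50 after a gene's start on GRCm38.p6, were matched to 3 of the 9 genes, Cdh15, Ctnnb1 and Ctnnd1. The first pair is shown because these genes stand at opposite ends of the pattern, Cdh15 far above the floor on the ALCAM+ array alone and Ctnnb1 bright on all 3. Capitals mark CANNTG, the E-box letters (N is any base; the motif reads the same way round on both strands), to which basic helix-loop-helix factors bind.
Cdh15, chr8:122848124-122848423, plus strand: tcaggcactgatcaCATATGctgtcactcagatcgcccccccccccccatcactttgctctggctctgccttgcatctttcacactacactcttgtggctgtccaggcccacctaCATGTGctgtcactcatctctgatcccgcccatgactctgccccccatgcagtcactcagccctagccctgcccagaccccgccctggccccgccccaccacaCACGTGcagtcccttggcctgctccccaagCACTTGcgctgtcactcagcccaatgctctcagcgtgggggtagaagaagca
Ctnnb1, chr9:120933150-120933449, plus strand: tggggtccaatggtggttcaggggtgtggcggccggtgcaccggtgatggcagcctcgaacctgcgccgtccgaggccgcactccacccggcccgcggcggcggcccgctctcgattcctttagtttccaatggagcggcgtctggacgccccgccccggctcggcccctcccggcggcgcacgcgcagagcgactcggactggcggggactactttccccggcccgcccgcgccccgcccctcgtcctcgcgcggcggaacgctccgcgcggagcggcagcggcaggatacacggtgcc
The Cdh15 window holds 4 CANNTG matches, a number that 6.49% of the 32851 promoter windows of that length reach, and the Ctnnb1 window holds 0, whereas 72.3% of all windows hold at least 1. The Ctnnb1 window has 46 CpG dinucleotides and a GC content of 75.3%, against 7 CpG and 61.3% in the Cdh15 window. The median window has 7 CpG and 52.7% GC. A second Ctnnb1 start gave a window with 51 CpG and 0 CANNTG, and the Ctnnd1 windows held 30 and 3 CpG with 1 and 0 CANNTG. These matches describe letters and show no binding.

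Before the comparisons, 4 facts of the whole series bear on the values. The gene Alcam had its highest signal on the ALCAM+ array in the 4 of its probe sets that passed the floor, for example 267.7 in ALCAM+, 41.1 in Sca-1+ and 36.3 in double-negative cells. Counts over all measured genes depended on scaling: out of 12643 genes, 254 were 4-fold or more higher and 338 lower in ALCAM+ than in double-negative cells, which became 144 and 665 after scaling on the poly-A spike-in controls and 163 and 559 on the hybridization controls. The same splits were 690 and 595 for Sca-1+ over double-negative cells, becoming 920 and 529 or 947 and 513, and 504 and 741 for ALCAM+ over Sca-1+ cells, becoming 272 and 1584 or 288 and 1437. Scaling on these controls, which were brighter on the ALCAM+ array, moved the median log2 difference of all measured genes to -0.58 or -0.46 for ALCAM+ over double-negative, to 0.20 or 0.24 for Sca-1+ over double-negative and to -0.82 or -0.74 for ALCAM+ over Sca-1+. As deposited those medians were -0.03, 0.00 and -0.01. The other yardstick is the disagreement of 2 probe sets of a gene: over 4152 genes with a pair above the floor on the 3 arrays, it gave a single probe set an SD of 0.38, 0.47 and 0.53 on the log2 scale in the 3 comparisons, in the same order. That SD leaves out the spread between mice and between sorts.

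The first comparison, ALCAM+ against double-negative cells, asks which cadherins go with ALCAM among endosteal cells that lack Sca-1. Of the 7 measured members 3 showed a 4-fold or larger excess in ALCAM+ cells and 0 a deficit. Of all measured genes, 2.01% were at least 4-fold higher and 2.67% lower. The median log2 difference of the 7 members was 0.89, beside -0.03 for all measured genes. The second comparison, Sca-1+ against double-negative cells, asks the same of Sca-1 among cells without ALCAM. It had 1 member at least 4-fold higher and 0 lower, where 5.46% of all measured genes were higher and 4.71% lower. The members' median was 0.00, as was that of all genes. ALCAM+ against Sca-1+ cells, which follows from the other comparisons and shares their arrays, had 3 members at least 4-fold higher and 1 lower, where 3.99% and 5.86% of all measured genes were, and a members' median of 1.06 beside -0.01. The members were picked with these results known, so these counts are a description of the 9 genes and not evidence about cadherins in general.

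Cdh2 encodes N-cadherin, a classical cadherin of mesenchymal, neural and muscle cells. Its brighter probe set (1449244_at) had 6178.5 in ALCAM+, 55.6 in Sca-1+ and 172.3 in double-negative cells. The other (1418815_at) gave 5049.6, 48.1 and 176.8. Only the ALCAM+ array was far above the floor, and the Sca-1+ value lay below it in both probe sets. Both were designed on the same cDNA, so they are not independent of each other. Cdh2 was 35.9-fold higher in ALCAM+ than in double-negative cells in the first and 28.6-fold in the second, and at least 81.9-fold and 67.0-fold higher than in Sca-1+ cells. Ordered by difference among the 10467 genes above the floor on both arrays, it stood in place 4 from the top in ALCAM+ over double-negative cells. Sca-1+ cells had at least 2.29-fold less Cdh2 signal than double-negative cells, a bound set by the floor. The log2 difference to double-negative cells of 5.16 ranged between 3.83 and 5.20 over 8 alternative settings, and that to Sca-1+ cells of 6.36 between 3.83 and 6.80.

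Cdh11 encodes cadherin-11, first known as osteoblast cadherin and also made by fibroblasts of the joint lining. It was the only cadherin of the set above the floor on the 3 arrays in every probe set. Its brighter probe set (1450757_at) had 9730.2 in ALCAM+, 1304.7 in Sca-1+ and 670.5 in double-negative cells, and the dimmer (1435120_at) 837.7, 117.3 and 82.2. The order of the 3 populations was thus the same in both. ALCAM+ cells were 14.5-fold and 10.2-fold above double-negative cells in these probe sets and 7.46-fold and 7.14-fold above Sca-1+ cells. Over the 8 alternatives the log2 difference of Cdh11 to double-negative cells, 3.86, lay between 3.23 and 3.86. That to Sca-1+ cells, 2.90, lay between 2.01 and 2.90, lowest with poly-A scaling and just above 4-fold there. Sca-1+ cells were 1.95-fold and 1.43-fold above double-negative cells. The brighter value, 0.96 on the log2 scale against a probe set SD of 0.47, stayed positive, between 0.74 and 1.26, under the 8 alternatives. Among genes above the floor on both arrays Cdh11 was in place 30 of 10467 for ALCAM+ over double-negative cells and in place 162 of 10139 for ALCAM+ over Sca-1+ cells.

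Cdh15 encodes M-cadherin, known from skeletal muscle and its satellite cells. Its single probe set (1418602_at) had 1453.2 in ALCAM+, 41.2 in Sca-1+ and 99.7 in double-negative cells. Only ALCAM+ cells were well above the floor, by 14.6-fold over double-negative and at least 19.3-fold over Sca-1+ cells. With a higher floor, the pooled 75th percentile of 433.9, the difference became 1.74 on the log2 scale in both comparisons and no longer reached 4-fold, because both other populations are then set to the floor. No second probe set was there to check it. Of 8 skeletal muscle marker genes, 5 (Pax7, Myf5, Myod1, Myog and Ckm) were at or below the floor on the 3 arrays, and Des, the muscle intermediate filament gene, gave 119, 173.1 and 144.7. Chrna1, which encodes a subunit of the muscle acetylcholine receptor, had 421.3 in ALCAM+, 5.3 in Sca-1+ and 65.8 in double-negative cells, and the skeletal actin gene Acta1 gave 528.5, 51.2 and 627.3. The summed signal of the 8 genes was 1234, 310.0 and 1066 in that order, and their part in the Cdh15 difference was not tested.

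Cdh13 encodes T-cadherin, which has no cytoplasmic tail, is held in the membrane by a lipid anchor and binds adiponectin. It ran the other way from the 3 genes above. Its brightest probe set (1434115_at) had 145.5 in ALCAM+, 4337.2 in Sca-1+ and 310.5 in double-negative cells. A second (1423551_at) gave 50.4, 2324.7 and 285.2, and the next (1454015_a_at) 10.6, 132.3 and 9.6, while the last (1431824_at) stayed below the floor at 15.5, 2.2 and 1.6. The 3 probe sets that passed the floor all peaked in Sca-1+ cells. Sca-1+ cells were 14.0-fold above double-negative cells in the brightest probe set, 8.15-fold in the second and at least 1.75-fold in the third. Among genes above the floor on both arrays this put Cdh13 in place 80 of 10324 from the top. ALCAM+ cells were 29.8-fold below Sca-1+ cells in the brightest and at least 30.8-fold in the second, in place 57 of 10139 from the bottom. ALCAM+ cells also had less Cdh13 signal than double-negative cells, by 2.13-fold and at least 3.78-fold in these, and this difference was 0 with that higher floor, the pooled 75th percentile, where neither population passed it. When the 4 probe sets were averaged, the Sca-1+ over double-negative log2 difference was 1.91 in place of 3.80 and did not reach 4-fold, since that average includes the probe set below the floor.

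**Figure D2:**
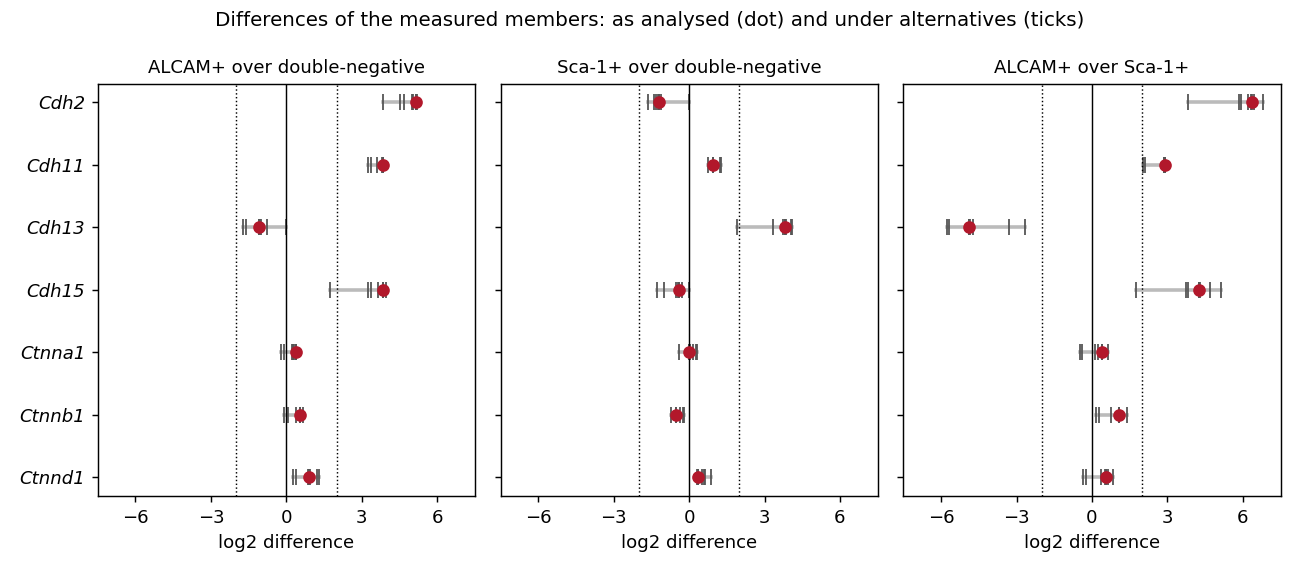
Log2 difference of the 7 measured members in the 3 comparisons. Red dots are the values as analysed, ticks are the values under the 8 alternatives that keep the 4-fold rule, grey bars span them, and dotted lines mark 4-fold. Cdh2 and Cdh11 stay beyond 4-fold in both ALCAM+ comparisons under every setting shown. The catenins stay within 4-fold under every setting shown, and in part cross 0.

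The catenin genes differed less than the 4 cadherins. Ctnna1, alpha-catenin, had 19742.8 in ALCAM+, 15000.9 in Sca-1+ and 14956.8 in double-negative cells in its brightest probe set (1437807_x_at), and 14989.8, 12873.6 and 12427 in the next (1448149_at). These differences, at most 1.32-fold, are about the size of the probe set SD or below it, and ALCAM+ over double-negative cells changed sign under either spike-in scaling (log2 difference 0.40 as deposited, -0.23 and -0.09 after scaling). Another probe set (1436631_at) gave another picture, with 2043.9 in ALCAM+, 507.1 in Sca-1+ and 1688 in double-negative cells, that is 4.03-fold higher in ALCAM+ than in Sca-1+ cells and 3.33-fold lower in Sca-1+ than in double-negative cells. The probe sets of Ctnna1 therefore disagree on Sca-1+ cells by more than the SD of 0.47. The remaining probe set (1437275_at) stayed below the floor.

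Ctnnb1, beta-catenin, was lowest in Sca-1+ cells in each of its 3 probe sets. The brightest (1420811_a_at) had 27232.7 in ALCAM+, 13045.7 in Sca-1+ and 18561.7 in double-negative cells, the second (1450008_a_at) 3807.5, 1234.5 and 2159.1, and the third (1430533_a_at) 595.6, 207 and 372.3. The 3 probe sets ordered the populations alike, ALCAM+ first, then double-negative and Sca-1+ last. The brightest and the second were designed on the same transcript record, so they are not independent of each other. ALCAM+ cells were 2.09-fold, 3.08-fold and 2.88-fold above Sca-1+ cells, and Sca-1+ cells were 1.42-fold, 1.75-fold and 1.80-fold below double-negative cells. Over the 8 alternatives the Sca-1+ over double-negative log2 difference, -0.51, stayed between -0.72 and -0.21, and that of ALCAM+ over Sca-1+, 1.06, between 0.18 and 1.40. ALCAM+ over double-negative, 0.55, turned to -0.07 with poly-A scaling, so that order is not settled.

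Ctnnd1, p120-catenin, which keeps cadherins at the cell surface, was highest in ALCAM+ cells. Its brightest probe set (1437448_s_at) had 1058.4 in ALCAM+, 726.6 in Sca-1+ and 572.9 in double-negative cells, another (1422450_at) 588.5, 464 and 252.3, and the third (1445830_at) 317.3, 106 and 87.8. ALCAM+ cells were 1.85-fold, 2.33-fold and 3.61-fold above double-negative cells in these. The log2 difference of the brightest, 0.89, stayed positive under the 8 alternatives, at 0.26 to 1.32, whereas ALCAM+ over Sca-1+, 0.54, became -0.34 and -0.25 with the spike-in scalings. Of the 9 catenin probe sets above the floor, which belong to 3 genes, 9 were higher in ALCAM+ than in double-negative cells as deposited, but 5 after poly-A and 6 after hybridization control scaling.

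Cdh1, E-cadherin, is the cadherin of epithelia and, in human marrow, is also found on early red cell precursors. Its single probe set (1448261_at) had 1.1 in ALCAM+, 4.7 in Sca-1+ and 9.4 in double-negative cells, all below the floor, so no fold is given. Of 7 epithelial marker genes, 4 were measured, and Cldn4, Cldn7 and Esrp1 were at or below the floor on the 3 arrays. Epcam gave 524.8, 661.6 and 649.7, Krt8 122.8, 57 and 85, Krt18 127.5, 11.6 and 83.6, and Grhl2 75.1, 69.7 and 84.9. The summed signal of the list was 883.4, 914.7 and 997.3, most of it from Epcam. The red cell genes Klf1, at 58.6, 58.6 and 3649.2, and Ermap, at 56.7, 38.5 and 3760.1, were bright on the double-negative array alone. The Cdh1 signal on that array was below the floor beside them.

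Cdh5, VE-cadherin, is the junction cadherin of vessel lining, whose cells carry CD31, a marker the sort selected against. Its probe sets had 25.4 in ALCAM+, 44 in Sca-1+ and 21.1 in double-negative cells (1422047_at) and 14.7, 15 and 21.7 (1433956_at). Of 11 endothelial marker genes, 6 were at or below the floor on the 3 arrays, among them Pecam1, which encodes CD31, at 7, 5.2 and 9.1, and Tie1. The summed signal of the endothelial list was 489.3 in ALCAM+, 954.6 in Sca-1+ and 594.3 in double-negative cells. Tek, the angiopoietin receptor gene, made up 630.6 of the Sca-1+ sum and was the only gene of the list above the floor there. The other measured genes of the list did not peak in Sca-1+ cells. Egfl7 (89.9, 71.3 and 217.2), Vwf (41.3, 1.9 and 99.4) and Esam (45.8, 71.8 and 80.9) were highest in double-negative cells. Kdr (76.7, 53.8 and 62.2) was highest in ALCAM+ cells. Sca-1+ cells exceeded both other populations in Tek by at least 8.36-fold. Cdh13, which vessel lining also makes, was highest on the same array, and the part of endothelial cells in it was not tested. In the RefSeq gene table (GRCm38.p6) Cdh5 is the next protein-coding gene to Cdh11, with 0 others between them, and the pair differed on every array, Cdh11 above the floor and Cdh5 below it.

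Marker lists of other kinds also differed between the 3 populations. All 7 osteoblast lineage genes with a named probe set were above the floor in ALCAM+ cells, with a summed signal of 145596 in ALCAM+, 9976 in Sca-1+ and 46628 in double-negative cells, and the 7, Ibsp, Ifitm5, Dmp1, Alpl, Sp7, Phex and Col1a1, all passed 4-fold in ALCAM+ over Sca-1+ cells, Col1a1 not after spike-in scaling. Over double-negative cells 3 of them did, Dmp1 (56.1-fold), Ifitm5 (24.3-fold) and Phex (14.3-fold), genes of late osteoblasts and osteocytes. The 8 chondrocyte genes summed to 204111, 30193 and 169806, and all but Comp, that is Col10a1, Col9a2, Matn3, Col9a1, Col2a1, Acan and Sox9, passed 4-fold in ALCAM+ over Sca-1+ cells. Col10a1, the collagen gene of hypertrophic cartilage, had 29730 in ALCAM+, 3.3 in Sca-1+ and 7099.7 in double-negative cells, and its 4.19-fold excess in ALCAM+ over double-negative cells was the only 4-fold difference of the list in that comparison, though not after quantile normalization or spike-in scaling. The 8 fibroblast and progenitor genes summed to 5672 in ALCAM+, 95982 in Sca-1+ and 2497 in double-negative cells, and 5 of them, Pi16, Mfap5, Cd34, Cd248 and Clec3b, were at or below the floor in ALCAM+ cells. Pdgfra, a receptor gene of mesenchymal cells, made up most of the ALCAM+ sum with 5121.8 in ALCAM+, 11647.4 in Sca-1+ and 671.5 in double-negative cells, 7.63-fold higher in ALCAM+ than in double-negative cells, whereas Dpt (2.93-fold), Thy1 (2.80-fold) and Cd34 (at least 5.67-fold) were lower there. Erythroid genes summed to 1665, 615.5 and 21731, and 6 of the 7 with a named probe set, Car1, Ermap, Klf1, Slc4a1, Tfrc and Epor, were at least 4-fold lower in both ALCAM+ and Sca-1+ than in double-negative cells. For Epor in Sca-1+ cells this did not hold after hybridization control scaling. Tfrc, at 1304.8, made up most of the ALCAM+ sum. Blood cell genes summed to 274.2, 444.3 and 1683, of which Mpo, a myeloid granule gene, gave 25.2, 91.4 and 1355.4 and Ptprc, which encodes CD45, 11.6, 163.2 and 159.4. Csf1r went the other way, with 201.3 in ALCAM+, 166.2 in Sca-1+ and 133.5 in double-negative cells, and made up most of the ALCAM+ sum. Neither of its 2 other probe sets above the floor was higher in ALCAM+ than in double-negative cells. The smooth muscle and pericyte genes summed to 10232, 10047 and 14813. Among the last, Cspg4, a surface proteoglycan gene, was lowest in Sca-1+ cells with 8931.9 in ALCAM+, 3277.8 in Sca-1+ and 10407.6 in double-negative cells, and made up most of the ALCAM+ sum. Rgs5, a pericyte gene, gave 58.6, 2332.9 and 276.1. Acta2, at 970.7, 3821 and 3532.4, and Notch3, at 132.3, 413.3 and 283.9, were like Rgs5 lowest in ALCAM+ cells in their brightest probe sets. The 2 other Rgs5 probe sets above the floor were also lower in ALCAM+ than in Sca-1+ cells. With signals raised to the floor, neither of them was lower in ALCAM+ than in double-negative cells. The part of these lists in the cadherin differences was not tested.

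**Figure D3:**
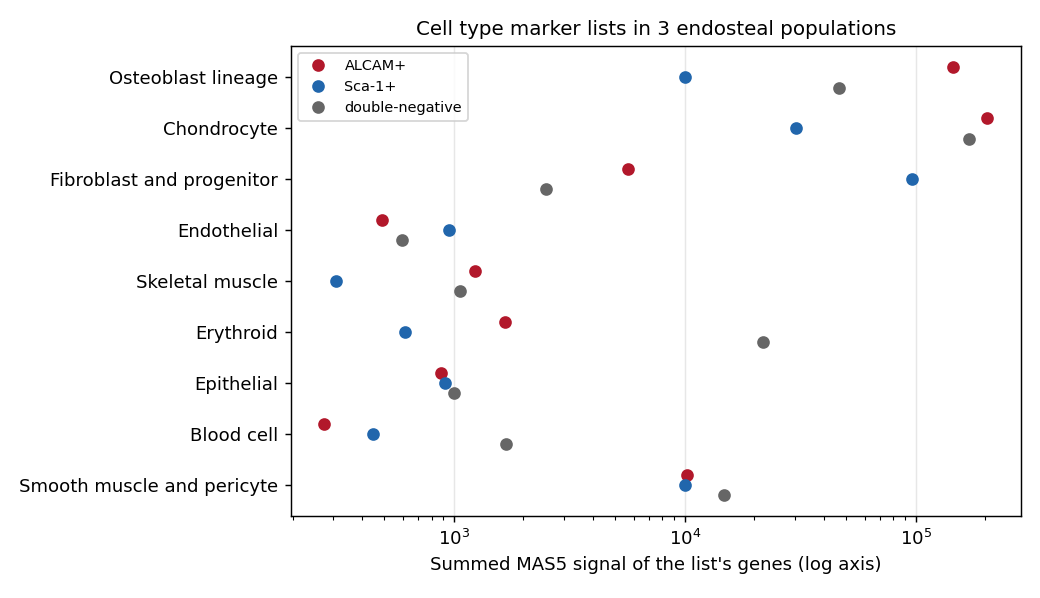
Summed MAS5 signal (log axis) of the genes of 9 cell type marker lists in ALCAM+ (red), Sca-1+ (blue) and double-negative cells (grey), 1 array each. Osteoblast lineage genes are highest in ALCAM+ cells (145596), fibroblast and progenitor genes in Sca-1+ cells (95982) and erythroid genes in double-negative cells (21731).

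Among 15 further cadherin genes with a named probe set, 11 were at or below the floor on the 3 arrays, including Cdh3, Cdh6 and Cdh8. Cdh19 was the only one 4-fold apart: it had 535.8 in ALCAM+, 52.3 in Sca-1+ and 146.2 in double-negative cells, which is at least 7.11-fold above Sca-1+ and 3.67-fold above double-negative cells, with ALCAM+ cells on top. Cdh4, R-cadherin, gave 49.7, 239.2 and 56.1, with only the Sca-1+ value above the floor. It was at least 3.17-fold higher there than in either other population. After either spike-in scaling it also passed 4-fold.

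Protocadherins and other atypical cadherins had 24 named genes, 14 of them measured. In ALCAM+ over double-negative cells 3 were at least 4-fold higher and 0 lower, in Sca-1+ over double-negative cells 3 higher and 0 lower, and in ALCAM+ over Sca-1+ cells 1 higher and 2 lower. After either spike-in scaling 16 genes of the list were measured and these counts were 2 and 1, 3 and 0, and 1 and 4. All measured genes, 12828 with poly-A scaling, then gave 144 and 665, 920 and 529, and 272 and 1584. Fat3, a giant cadherin gene, followed the order of Cdh2, with 1422.5 in ALCAM+, 44.4 in Sca-1+ and 140.1 in double-negative cells, a difference of 10.2-fold to double-negative cells. Pcdh19 followed the order of Cdh13 in its high Sca-1+ value, with 96.1, 1390 and 150.2, and was 9.25-fold higher in Sca-1+ than in double-negative cells. Pcdh7, at 1403.4, 472.5 and 99.1, and Pcdh18, at 1059.1, 1508.4 and 264, were high in both marker-positive populations. Pcdh7 was 14.2-fold and 4.77-fold and Pcdh18 4.01-fold and 5.71-fold higher there than in double-negative cells; the 4.01-fold of Pcdh18 does not reach 4-fold after spike-in scaling. Clstn1, calsyntenin-1, was 5.71-fold lower in ALCAM+ (709.9) than in Sca-1+ cells (4053.9).

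Desmosomes are the junctions of desmogleins, desmocollins and plakins that epithelia use beside cadherin-catenin junctions. Of 11 named desmosome genes 6 were measured and 0 were 4-fold apart in the 3 comparisons, though Pkp1 reached 4-fold lower in ALCAM+ cells after either spike-in scaling. Pkp4, a p120-related gene, came near in the other direction with 2069.2 in ALCAM+, 822.5 in Sca-1+ and 604.7 in double-negative cells, 3.42-fold above double-negative cells. Dsp, desmoplakin, gave 256.4, 40.5 and 239.8, below the floor in Sca-1+ cells. Jup, plakoglobin, which can stand in for beta-catenin at junctions, gave 124.3, 267.8 and 136.3, so it was highest in Sca-1+ cells, where Ctnnb1 was lowest. Jup had 1 probe set, and a link between its signal and that of Ctnnb1 was not tested.

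Of 21 other catenins and junction partners, 18 were measured and 1 was 4-fold apart. Lima1, an actin-binding partner of alpha-catenin, had 947.3 in ALCAM+, 5350.3 in Sca-1+ and 1259.2 in double-negative cells. It was 4.25-fold higher in Sca-1+ than in double-negative cells and 5.65-fold lower in ALCAM+ than in Sca-1+ cells, and its 3 other probe sets above the floor pointed the same way. Arvcf, a p120-family catenin, gave 118.5, 466.4 and 176.8 and was 3.94-fold lower in ALCAM+ than in Sca-1+ cells. Nectin3, an immunoglobulin-type adhesion gene of the same junctions, gave 1183.3, 1677.7 and 472.1. The alpha-catenin paralogues Ctnna2 and Ctnna3 and the delta-catenin gene Ctnnd2 were at or below the floor on the 3 arrays.

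Of 17 genes for cadherin repressors and for proteins that cleave cadherins or limit that cleavage, 16 were measured. In Sca-1+ over double-negative cells 3 were at least 4-fold higher (Twist2, Zeb2 and Twist1) and 0 lower, in ALCAM+ over double-negative cells 1 was higher (Zeb2), and in ALCAM+ over Sca-1+ cells 1 was lower (Twist2). Zeb2, which represses Cdh1 in epithelia, had 1426.2 in ALCAM+, 1458.1 in Sca-1+ and 235.5 in double-negative cells, and its 4 other probe sets pointed the same way in both comparisons with double-negative cells. Its excess in ALCAM+ cells, 6.06-fold, does not reach 4-fold after poly-A scaling. Twist1 gave 1509.1, 2204.1 and 419.1. Twist2 gave 67, 1000.9 and 152.7, at least 13.3-fold lower in ALCAM+ than in Sca-1+ cells. Adam10, the protease that sheds N-cadherin, gave 3409.7, 3245.4 and 1887.2, a difference under 2-fold in every comparison. Snai2, another repressor of Cdh1, gave 3822.1, 4700.8 and 8203.8, highest in double-negative cells, where Zeb2 and Twist1 were lowest.

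Of 22 genes for beta-catenin breakdown and its nuclear partners and targets, 19 were measured. At 4-fold, 2 were higher and 0 lower in ALCAM+ over double-negative cells, 0 and 1 in Sca-1+ over double-negative cells, and 1 and 0 in ALCAM+ over Sca-1+ cells. Tcf7l2, a nuclear partner of beta-catenin, had 3004.2 in ALCAM+, 670.5 in Sca-1+ and 660.9 in double-negative cells, which is 4.55-fold and 4.48-fold higher in ALCAM+ than in double-negative and Sca-1+ cells. Neither value reaches 4-fold after either spike-in scaling. Nkd2, a Wnt inhibitor gene, was 4.30-fold higher in ALCAM+ (741.6) than in double-negative cells (172.3), with the same limit. Lef1 had 201.5 in ALCAM+, 38 in Sca-1+ and 535.2 in double-negative cells, at least 7.10-fold lower in Sca-1+ than in double-negative cells. Axin2, a common target of beta-catenin, gave 262.6, 430.1 and 214.9 and was 4-fold apart in none of the 3 comparisons. The medians of the 6 related lists lay between -0.02 and 0.30 in ALCAM+ over double-negative cells, between 0.00 and 0.71 in Sca-1+ over double-negative cells and between -0.30 and 0.64 in ALCAM+ over Sca-1+ cells, where those of all measured genes were -0.03, 0.00 and -0.01. With poly-A scaling these ranges were -0.67 to 0.00, 0.10 to 0.97 and -1.21 to 0.13, beside -0.58, 0.20 and -0.82 for all genes.

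**Figure D4:**
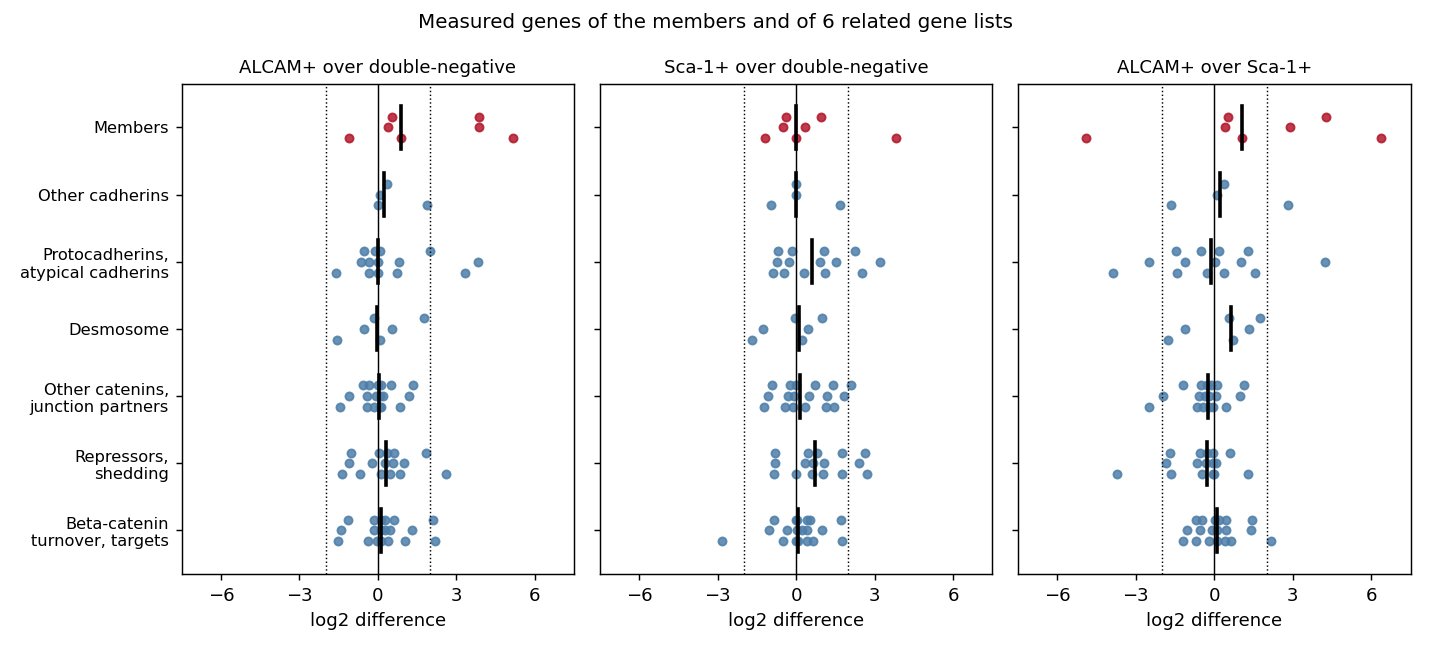
Log2 difference of each measured gene among the members (red) and 6 related lists (blue) in the 3 comparisons. Black bars are medians, dotted lines mark 4-fold, and vertical offsets only separate points. Of the 7 members, 4 lie beyond 4-fold in at least 1 comparison, beside 14.8% of all measured genes.

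The genes most like each cadherin were taken as those with the smallest distance between centred log2 profiles over the 3 populations, among 12636 measured genes that are no members. With 3 points per profile this likeness describes these arrays and no more. For Cdh2 these were Mlip (8079.6 in ALCAM+, 53.2 in Sca-1+ and 194 in double-negative cells), Cpz and Slc36a2, and 6 genes lay within a distance of 0.5. For Cdh11 they were Rerg (2843.9, 442.7 and 221.2), Mmp16 and Ankrd6, with 10 genes within 0.5. For Cdh15 they were Pard6g (7047, 354.6 and 456.1), Cracdl and Spns2, with 18. For Cdh13 they were Nid1, a basement membrane gene (354.4, 10921.2 and 768.2), Lrrn4cl and the collagen gene Col4a2, with 36 genes within 0.5. More genes thus shared the Cdh13 profile at this distance than that of Cdh2.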

How the data were processed

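Gene expression was measured on 3 arrays, 1 for each sorted population, and the titles in the labels gave the groups. Total RNA was amplified and biotin-labelled by a 2-cycle assay, per the labels' protocols. The values are the signal intensities of 45101 probe sets deposited by the authors, made with MAS5 per the submitters' processing notes, with no version given in the sources used here. The mean without the highest and lowest 2% was 500.004 or 500.003 on each array, so the intensities were used as deposited. The number of arrays limits the precision.

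Probe sets were named from the array's annotation table through Entrez identifiers of RefSeq GRCm38.p6 (34741 of 34945 found, 0 symbols changed). Another 932 probe sets with several symbols, 9160 not listed and 64 controls named no gene. The deposited intensities were raised to the floor of 75.4 and turned to log2. For a gene, the brightest probe set on average stood for it, and 12643 genes were measured. Differences of at least 4-fold were counted, and no test was possible. Python 3.11.15, pandas 2.3.3 and numpy 2.4.6 were used, and the code of the fold rule was checked on simulated data. The noise in that simulation was set by hand, so it says nothing about the spread between mice or sorts. Named are all members, of each list the genes at least 4-fold apart and otherwise the largest differences, and the 3 nearest profiles of each member that is 4-fold apart. Some genes of the lists are also named for their role or after their values were seen (Adam10, Axin2, Jup, Snai2, Cspg4, Comp, Kdr, Ctnna2, Ctnna3, Ctnnd2, Cdh3, Cdh6, Cdh8 and marker genes at or below the floor). The members and lists were chosen with earlier results of these data known. Of 116 genes in the 6 related lists 110 had a named probe set and 77 were measured. Alternatives were other floors, no floor with 16 added, quantile normalization, scaling on the poly-A or hybridization controls, other probe set rules and a 2-fold rule.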

Additional observations from a re-analysis of the deposited data

How the results depend on the processing

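The precision is limited by 1 array per population, so that mice, sorts and hybridizations are not separated from the populations. No paired analysis was possible because no population has a replicate. The counts of members at least 4-fold apart were 3 higher and 0 lower (ALCAM+ over double-negative), 1 and 0 (Sca-1+ over double-negative) and 3 and 1 (ALCAM+ over Sca-1+). Over 9 alternatives they stayed within 1.5 times of these, except that the Sca-1+ over double-negative count of higher members was 0 with the probe sets of each gene averaged, and that a 2-fold rule gave 1 lower member in ALCAM+ over double-negative (Cdh13) and 1 in Sca-1+ over double-negative cells (Cdh2). Of 168 log2 differences of single members under 8 alternatives, 129 moved by less than the probe set SD, 39 moved by more and 0 of those beyond 4-fold changed sign. Of the 21 member comparisons 5 changed sign under at least 1 alternative, all of them catenins. Counts over all genes moved by more than 1.5 times in these cases beside the spike-in scalings given above. The 2-fold rule gave 845 higher and 1338 lower (ALCAM+ over double-negative), 1894 and 1606 (Sca-1+ over double-negative) and 1416 and 1999 (ALCAM+ over Sca-1+). A floor at the pooled 75th percentile gave 122 higher and 86 lower (ALCAM+ over double-negative), 345 and 223 (Sca-1+ over double-negative) and 256 and 356 (ALCAM+ over Sca-1+). Under a floor at the pooled 25th percentile 584 genes were lower in ALCAM+ than in double-negative cells, and averaged probe sets gave 168 higher and 194 lower there and 459 higher in Sca-1+ over double-negative cells. Poly-A scaling also moved the higher and lower counts, in the 3 comparisons in turn, to 0 and 1, 2 and 0, and 0 and 4 for the junction partner list, to 0 and 1, 5 and 0, and 0 and 4 for the repressor and shedding list, and to 0 and 2, 1 and 1, and 0 and 0 for the beta-catenin list. Over all 12828 genes measured with that scaling the counts were 144 and 665, 920 and 529, and 272 and 1584.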
